A study of Mus musculus with 12 samples.

Results

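Imprinted genes are transcribed mainly from one parental copy, and the set described here holds 40 of them. They were listed by symbol, 20 expressed from the paternal copy and 20 from the maternal copy, and each was read on the brightest probe set that the platform annotation assigns to that symbol alone. Of the 40, 38 had such a probe set and 33 were bright enough to be tested, of 18193 named and 12737 tested genes on the arrays. H19, the long noncoding RNA beside Igf2, had only a probe set shared with other symbols, and the splicing factor gene Zrsr1 had none, so neither has a value. The noncoding RNA Rian, the ubiquitin protease gene Usp29, the zinc finger gene Zim1, the exchange factor gene Rasgrf1 and the proteoglycan gene Dcn were too dim to test. The arrays do not tell the parental copies apart, so every value is the summed signal of both.

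The series profiled D3 cells, a mouse embryonic stem cell line, on 12 Affymetrix arrays, 3 for each of 4 conditions. All cultures were kept for 7 days in medium with 15% serum. The conditions were LIF-free plus lithium, LIF plus lithium, LIF-free (no LIF and no lithium) and LIF at 1000 units per ml. The labels give lithium as 50 nM, whereas millimolar levels are usual, and they name no feeder layer; lithium is a known inhibitor of GSK3, a kinase of the Wnt pathway. The labels number the replicates of a condition 1 to 3 as biological and do not say which cultures share a number. Signals below are MAS5 intensities, given for replicates 1, 2 and 3 in that order. Each array had a mean signal of 100 without its lowest and highest 2% of values, and signals of different genes are not compared.

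Most imprinted genes lie in clusters, each ruled by a control region that carries DNA methylation on one parental copy only. Such marks are set in the germ line and kept through early development by ZFP57 with TRIM28 and by the maintenance methyltransferase, and they are known to be prone to loss in cultured embryonic stem cells. Paternally expressed genes such as Igf2 and Peg3 act largely in fetal growth and in the placenta, and maternally expressed genes such as Cdkn1c, Phlda2, Grb10 and Igf2r largely restrain growth. LIF holds serum-grown mouse embryonic stem cells undifferentiated through STAT3.

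After 7 days without LIF, 11 imprinted genes of several clusters were higher, and no member was called lower. limma called 11 of the 33 tested members higher in LIF-free than in LIF cultures, 0 lower and 22 in neither direction, at an adjusted p under 0.05 over all 27022 probe sets. Of all tested probe sets, 9.31% were called, 5.4% higher and 3.91% lower. The 11 were Igf2, Cdkn1c, Phlda2, Peg10, Sgce, Mest, Dlk1, Ndn, Peg3, Inpp5f and Gnas. The median log2 change over the 33 was 0.75, against -0.07 over all probe sets. Here and below, a member counts by its brightest probe set, whereas the background holds every tested probe set, also dimmer ones of a gene and those without a symbol. A background of 1 probe set per gene was not computed. In this mixed population, more cells of a type and more RNA per cell cannot be told apart.

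The split by the parental copy listed for each gene was uneven. Which copy was expressed in these cells was not measured, and the listed class need not hold in them. Among paternally expressed members, 8 of 17 were called higher and the median log2 change was 0.96, with 15 of the 17 changes above 0. Among maternally expressed members, 3 of 16 were called higher (Cdkn1c, Phlda2 and Gnas), the median was 0.05, and 9 of the 16 were above 0. The difference between the parental classes was not tested. All 3 LIF-free signals lay above all 3 LIF signals in 15 members and below them in 2, which are Copg2 and Slc22a18, a transporter gene; the shares over all probe sets were 13.8% and 13.7%.

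Equal replicate numbers deviated together in LIF-free and LIF arrays, so these arrays count as paired. With the replicate number as a block, 16 members were called higher and 1 lower, where 10% and 9.42% of all probe sets were. The added calls were Asb4 (adjusted p = 0.0133), Plagl1 (adjusted p = 0.000862), Nnat (adjusted p = 0.0499), Impact (adjusted p = 0.0012) and Igf2r (adjusted p = 0.00534), all higher, and Copg2 (adjusted p = 0.0226), lower. Without the block, leaving out LIF replicate 2 gave 7 called members, leaving out LIF-free replicate 1 also 7, and leaving out LIF-free replicate 2 gave 6.

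In the lithium-treated cultures, withdrawal of LIF gave a longer list, among the members and over all probe sets. The difference between the 2 LIF comparisons, tested as the interaction of LIF withdrawal and lithium, was called in 0 members. Of the 33 members, 15 were called higher in LIF-free plus lithium than in LIF plus lithium cultures, 1 was called lower and 17 were not called. Over all probe sets the share called was 12.5%, of which 7.53% higher and 4.93% lower. The 11 genes called in the cultures without lithium were all called here in the same direction, and Ascl2, Plagl1, Nnat and Igf2r were called higher and Copg2 lower as well. These 2 comparisons share no array, though they share one estimate of the spread. The median log2 change was 0.93 over the 33 members and 0.11 over all probe sets.

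Paternally expressed members were called higher in 10 of 17 cases (median log2 change 1.15), and maternally expressed ones in 5 of 16, with 1 lower (median 0.13). Signals did not overlap in 17 members that were higher and in 2 that were lower (19.9% and 13.5% of all probe sets). Here 60.4% of all calls were higher as deposited and 49% once each array was centred on its median, which moved the median of all probe sets to -0.01; centring left 13 members higher and 1 lower. Without lithium the shares were 58% and 67%, and centring gave 14 members higher and 0 lower. With the replicate block, 16 members were called higher and 1 lower, where 12.8% and 9.19% of all probe sets were. Leaving out LIF plus lithium replicate 3 gave 7 called members, leaving out replicate 1 of LIF-free plus lithium also 7, and leaving out its replicate 2 gave 8.

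**Figure D1:**
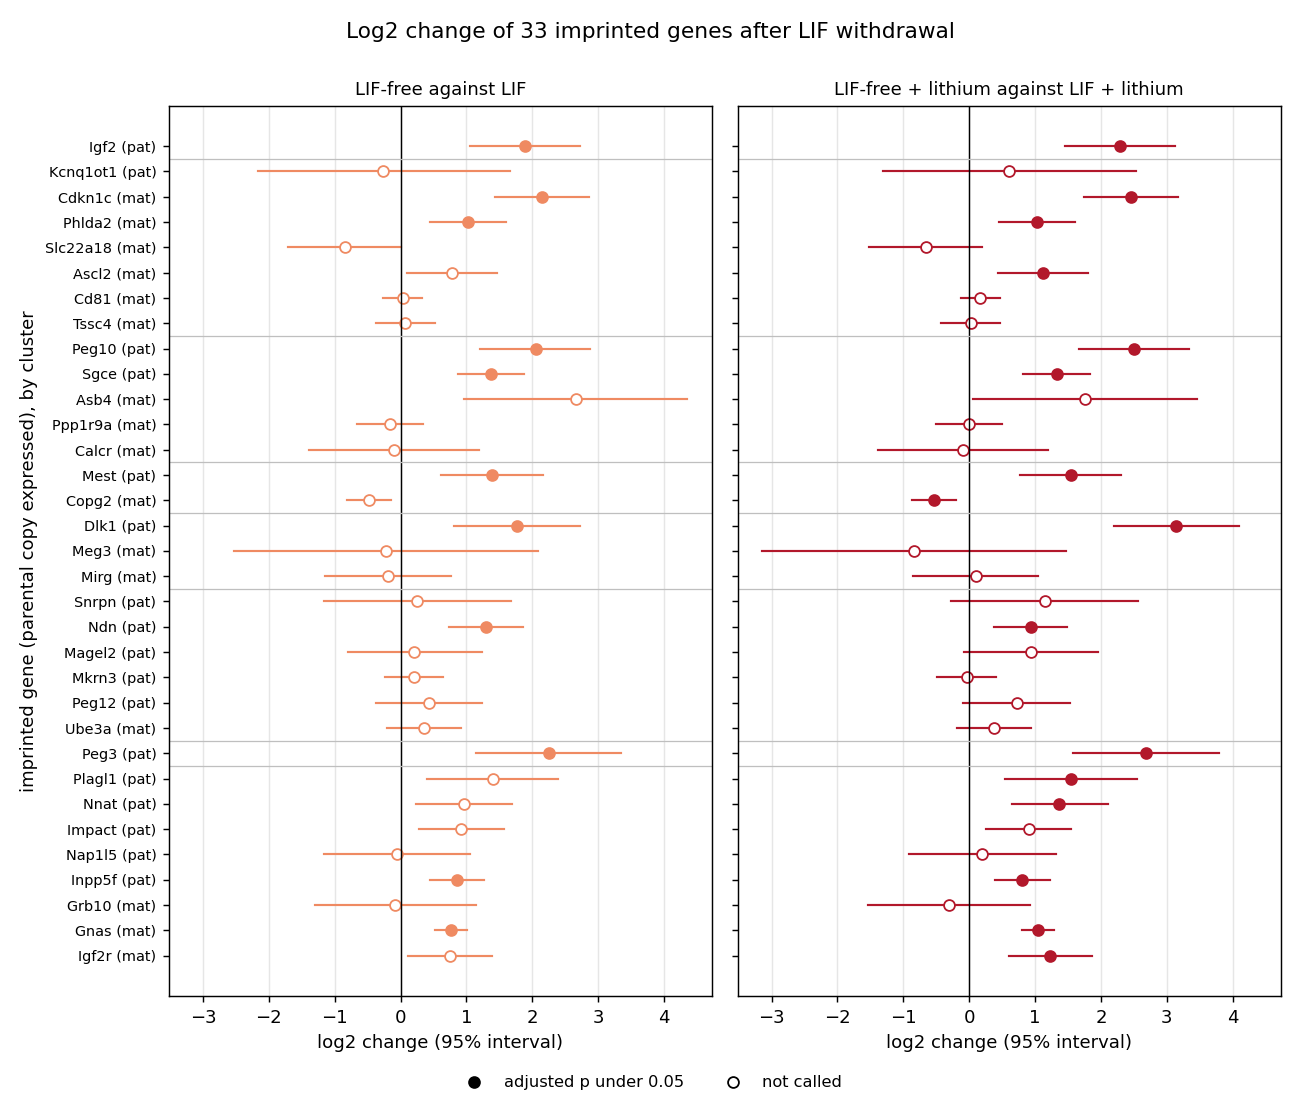
Log2 change (horizontal axis) of the 33 tested imprinted genes, by cluster from top to bottom, in LIF-free against LIF cultures (left) and in LIF-free plus lithium against LIF plus lithium cultures (right). Points are limma estimates, bars their 95% intervals, and filled points mark an adjusted p under 0.05 (11 on the left, 16 on the right); Copg2 is the only filled point below 0.

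The promoter windows of called genes are shown because these genes, which lie on different chromosomes or in separate clusters, were called in the same direction; capitals mark CpG, the dinucleotide that carries the methylation of imprints. Of the 11 members called in both LIF comparisons, 8 had a window in the RefSeq promoter table (GRCm38.p6) and 5 had exactly 1, printed here 5′ to 3′ on the gene's strand from 250 bases before to 50 bases after the start. Dlk1 is at chr12:109452573-109452872 (plus strand), Inpp5f at chr7:128611115-128611414 (plus), Ndn at chr7:62348027-62348326 (plus), Peg3 at chr7:6730370-6730669 (minus) and Phlda2 at chr7:143502475-143502774 (minus).
Dlk1: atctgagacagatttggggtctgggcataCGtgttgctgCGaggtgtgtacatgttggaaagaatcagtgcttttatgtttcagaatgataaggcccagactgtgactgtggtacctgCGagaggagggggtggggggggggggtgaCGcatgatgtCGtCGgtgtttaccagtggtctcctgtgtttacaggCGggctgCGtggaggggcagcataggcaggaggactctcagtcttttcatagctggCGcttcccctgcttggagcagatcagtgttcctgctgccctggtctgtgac
Inpp5f: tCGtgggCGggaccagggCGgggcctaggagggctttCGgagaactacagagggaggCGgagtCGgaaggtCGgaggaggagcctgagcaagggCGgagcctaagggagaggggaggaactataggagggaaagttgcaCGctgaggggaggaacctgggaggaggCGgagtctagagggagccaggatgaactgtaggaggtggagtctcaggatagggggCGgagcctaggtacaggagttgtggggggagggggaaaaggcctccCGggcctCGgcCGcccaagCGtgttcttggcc
Ndn: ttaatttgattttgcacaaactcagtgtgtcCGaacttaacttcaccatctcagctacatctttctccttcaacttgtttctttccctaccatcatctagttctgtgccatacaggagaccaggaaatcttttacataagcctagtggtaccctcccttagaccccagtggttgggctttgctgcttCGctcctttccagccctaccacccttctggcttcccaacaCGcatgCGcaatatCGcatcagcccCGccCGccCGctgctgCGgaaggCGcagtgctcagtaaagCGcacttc
Peg3: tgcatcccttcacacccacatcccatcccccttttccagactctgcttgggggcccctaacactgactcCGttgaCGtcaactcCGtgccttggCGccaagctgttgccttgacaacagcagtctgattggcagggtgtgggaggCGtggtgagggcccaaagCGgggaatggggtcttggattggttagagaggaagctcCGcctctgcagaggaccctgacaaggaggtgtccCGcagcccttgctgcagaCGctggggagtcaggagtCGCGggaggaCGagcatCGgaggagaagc
Phlda2: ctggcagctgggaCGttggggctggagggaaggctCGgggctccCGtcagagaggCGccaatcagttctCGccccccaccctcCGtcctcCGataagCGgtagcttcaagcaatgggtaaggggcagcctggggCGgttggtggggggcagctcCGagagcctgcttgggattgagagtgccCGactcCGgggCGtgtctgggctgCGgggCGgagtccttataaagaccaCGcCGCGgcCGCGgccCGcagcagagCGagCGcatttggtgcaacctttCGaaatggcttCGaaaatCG

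The 5 windows held from 9 CpG (Dlk1) to 26 (Phlda2), with 11 in Ndn, 13 in Peg3 and 15 in Inpp5f, against a median of 7 over all 32851 windows of 300 bases. In Phlda2 they are spread over the whole window, and in Ndn most of them fall near its 3′ end. The Peg3 window shares 263 bases with that of Usp29, which is read from the opposite strand. On either strand, the ZFP57 motif TGCCGC was in 0 of these 5 windows and in 11.6% of all windows. Among the 8 called genes with a window, it was in 2, namely in 2 of the 3 Mest windows and in 1 of the 4 Igf2 windows. Those 2 Mest windows overlap almost fully (chr6:30737800-30738099 and chr6:30737803-30738102). The YY1 motif GCCATNTT was in 0 of the 8 genes' windows and in 6.05% of all windows. The STAT motif TTCNNNGAA was in those of 1 of the 8 genes, Inpp5f, and in 8.3% of all windows. The shares over all windows are per window, whereas the counts over the 8 genes are per gene, and some of these genes had several windows. Such matches describe the letters of these windows only. Whether the Inpp5f window belongs to the imprinted variant of that gene was not determined.

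Igf2 encodes a fetal growth factor and is expressed from the paternal copy on chromosome 7. Its signals were 3900, 3200 and 3010 in LIF-free cultures, against 1610, 521 and 874 in LIF cultures. In LIF-free plus lithium cultures they were 4400, 3790 and 2410, against 1210, 564 and 500 in LIF plus lithium cultures. Neither pair of conditions overlapped. The log2 change was 1.89 ± 0.39 (SE, n = 3 arrays per condition, limma adjusted p = 0.00997) without lithium and 2.29 ± 0.39 (adjusted p = 0.00302) with it. A second, dimmer Igf2 probe set gave 1.74 (adjusted p = 0.0819) and 3.55 (adjusted p = 0.00276). The calls of the brighter set held without any one array.

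The adjoining cluster on chromosome 7 is silenced on the paternal copy by the long noncoding RNA Kcnq1ot1, and its protein-coding members are expressed from the maternal copy. All 7 listed members were tested, of which 2 were called higher without lithium and 3 with it. Cdkn1c, the cyclin-dependent kinase inhibitor p57, had signals of 809, 796 and 590 in LIF-free cultures, against 249, 109 and 160 in LIF cultures. With lithium, the values were 872, 765 and 599 in LIF-free plus lithium cultures and 228, 114 and 93.5 in LIF plus lithium cultures. Every LIF-free signal of Cdkn1c was above every signal with LIF. Its log2 changes were 2.15 ± 0.33 (adjusted p = 0.00244) and 2.45 ± 0.33 (adjusted p = 0.00103), and both calls held without any one array.

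Phlda2, which limits growth of the placenta, had signals of 1570, 1120 and 1230 in LIF-free cultures, against 760, 724 and 468 in LIF cultures. LIF-free plus lithium cultures gave 2160, 1010 and 1050, and LIF plus lithium cultures 608, 719 and 618. The groups did not overlap in either pair, and replicate 1 was highest of the lithium-treated LIF-free arrays. Both log2 changes were 1.03 ± 0.27 (adjusted p = 0.0302 without lithium and 0.0248 with it). The first call was lost on leaving out any one of 5 arrays (adjusted p up to 0.112, without LIF replicate 3), and the second on leaving out any one of 4 (up to 0.0897, without LIF plus lithium replicate 3).

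Ascl2, a basic helix-loop-helix factor of trophoblast progenitors, had signals of 217, 151 and 163 in LIF-free plus lithium cultures, against 69.9, 92.7 and 81 in LIF plus lithium cultures. Its LIF-free signals of 178, 115 and 195 overlapped with the LIF signals of 89.5, 56.6 and 156. Its log2 change was 1.12 ± 0.32 with lithium (adjusted p = 0.0366) and 0.78 ± 0.32 without it (adjusted p = 0.147). The call was lost on leaving out any one of 6 arrays (adjusted p up to 0.14, without LIF-free plus lithium replicate 1). Of 3 tested Ascl2 probe sets, 1 was called with lithium (log2 changes of 0.82 to 1.12) and 0 without it (0.34 to 1.07). Slc22a18 was not called, with log2 changes of -0.85 and -0.66 from signals of 10 to 41.1. The tetraspanin gene Cd81 and the spliceosome gene Tssc4 were not called either, and their log2 changes lay between 0.02 and 0.17. For Kcnq1ot1 the log2 changes were -0.26 ± 0.89 without lithium and 0.61 ± 0.89 with it, and neither was called.

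On chromosome 6, Peg10 and Sgce share a bidirectional promoter region and are both expressed from the paternal copy. Peg10, a gene of retrotransposon origin that the mouse placenta needs, had signals of 133, 124 and 68.5 in LIF-free cultures, against 36.8, 19.1 and 22.8 in LIF cultures. With lithium the signals were 146, 120 and 69.3 in LIF-free plus lithium cultures, against 28.5, 18.3 and 12.9 in LIF plus lithium cultures. The groups of Peg10 were separate in both pairs. The log2 changes were 2.05 ± 0.39 (adjusted p = 0.0068) and 2.50 ± 0.39 (adjusted p = 0.00202), and leaving out any one array ended neither call.

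Sgce, the gene of epsilon-sarcoglycan, had signals of 427, 519 and 511 in LIF-free cultures, against 206, 245 and 130 in LIF cultures. The lithium-treated values were 413, 575 and 509 in LIF-free plus lithium cultures and 205, 243 and 153 in LIF plus lithium cultures. All LIF-free arrays were above all arrays with LIF. Log2 changes of 1.37 ± 0.23 (adjusted p = 0.00399) and 1.33 ± 0.23 (adjusted p = 0.00363) were called, and they held without any one array. A second and much dimmer Sgce probe set was not called and had changes of opposite sign, -1.05 without lithium and 1.25 with it.

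On their brightest probe sets, the maternally expressed neighbours of Peg10 were not called in the fit without the block. Asb4, which encodes a SOCS-box protein, had the largest log2 change of any tested member without lithium, 2.66 ± 0.78 (adjusted p = 0.0509), and 1.76 ± 0.78 with it (adjusted p = 0.169). Its signals were 54.5, 23.5 and 19.1 in LIF-free cultures, against 10.7, 0.531 and 9.1 in LIF cultures, so the fold rests on dim values. With lithium they were 27.1, 18.5 and 13.6, against 4.94, 4.51 and 7.91 in LIF plus lithium cultures, again without overlap. Its other probe set gave 2.29 (adjusted p = 0.122) and 3.12 (adjusted p = 0.0347). Asb4 is given by array because of its size, which was known when it was chosen. Log2 changes of the neurabin gene Ppp1r9a (-0.16 and -0.01) and of the calcitonin receptor gene Calcr (-0.10 in both) were not called.

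Also on chromosome 6, Mest and Copg2 are read from opposite strands and end close to each other. Mest, a paternally expressed gene of the hydrolase fold that marks mesoderm, had signals of 1500, 1450 and 704 in LIF-free cultures, against 653, 349 and 371 in LIF cultures. LIF-free plus lithium cultures had 1780, 1280 and 695, and LIF plus lithium cultures 405, 477 and 333. The pairs did not overlap, and replicate 3 was the lowest LIF-free array of each. Mest had log2 changes of 1.39 ± 0.36 (adjusted p = 0.0293) and 1.54 ± 0.36 (adjusted p = 0.0149). Single arrays ended the first call in 4 cases (adjusted p up to 0.117, without LIF-free replicate 2) and the second in 3 (up to 0.0721, without LIF-free plus lithium replicate 1). With the replicate block, the limma adjusted p of Mest was 0.000554 without lithium and 0.000221 with it.

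Copg2, a coatomer subunit gene expressed mainly from the maternal copy, went the other way from Mest. Its signals were 221, 221 and 300 in LIF-free plus lithium cultures, against 340, 347 and 378 in LIF plus lithium cultures. Without lithium they were 190, 244 and 211 in LIF-free cultures, against 266, 309 and 321 in LIF cultures. Neither pair overlapped, and every LIF-free signal of a pair was below those with LIF. The log2 change was -0.53 ± 0.16 (adjusted p = 0.0418) with lithium and -0.48 ± 0.16 (adjusted p = 0.0747) without it. The call was lost on leaving out any one of 8 arrays (adjusted p up to 0.158, without LIF-free plus lithium replicate 1).

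Dlk1 and Meg3 are neighbours on chromosome 12 that are expressed from opposite copies: Dlk1, a Notch-like membrane protein of fetal tissues, from the paternal one, and the long noncoding RNA Meg3 from the maternal one. Dlk1 signals were 103, 190 and 64.1 in LIF-free cultures, against 39.1, 20.4 and 40.2 in LIF cultures. They were 128, 150 and 54.8 in LIF-free plus lithium cultures, against 9.55, 12.9 and 12.4 in LIF plus lithium cultures. All LIF-free signals exceeded those with LIF, and the 3 LIF plus lithium arrays were the lowest of all. The log2 change was 1.76 ± 0.44 (adjusted p = 0.0263) without lithium and 3.14 ± 0.44 (adjusted p = 0.00138) with it, and this second value was the largest called change among members read on their brightest probe sets. Its size rests on dim LIF plus lithium signals, near the signal of 7.52 at the filter. The first call was lost on leaving out any one of 3 arrays (adjusted p up to 0.12, without LIF-free replicate 2).

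Meg3 was not called in any comparison of conditions. Its signals were 50.4, 19.3 and 24.4 in LIF-free cultures, against 81.9, 46.7 and 9.89 in LIF cultures. With lithium they were 45.8, 29.8 and 3.98 in LIF-free plus lithium cultures, against 101, 46.7 and 6.55 in LIF plus lithium cultures. The ranges overlapped throughout, and in each condition replicate 1 was the highest. The log2 changes were -0.22 ± 1.07 and -0.84 ± 1.07, with 95% intervals from -2.53 to 2.08 and from -3.14 to 1.47. None of the 6 tested Meg3 probe sets was called in either LIF comparison. The maternal noncoding RNA Mirg changed by -0.19 and 0.10 on the log2 scale, which was not called.

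In the Snrpn to Ube3a cluster of chromosome 7, 6 members were tested and Ndn was the only one called. Ndn encodes necdin, a MAGE family protein of neurons and stem cells, and is expressed from the paternal copy. It had signals of 447, 377 and 357 in LIF-free cultures, against 242, 161 and 103 in LIF cultures. Signals of 416, 368 and 306 were measured in LIF-free plus lithium cultures, against 158, 228 and 186 in LIF plus lithium cultures. The groups were separate in both pairs. The log2 changes were 1.30 ± 0.26 (adjusted p = 0.00863) and 0.93 ± 0.26 (adjusted p = 0.0327). All 5 Ndn probe sets were called higher without lithium (log2 changes of 0.91 to 1.68) and 4 of 5 with it (0.55 to 1.18). The second call was lost on leaving out any one of 4 arrays (adjusted p up to 0.124, without LIF-free plus lithium replicate 1), and the brightest set without the _x_at suffix gave 0.55 (adjusted p = 0.237).

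Snrpn, a paternally expressed gene of a splicing protein, was read here on a dim probe set, and those it shares with Snurf were not used. Its signals were 33.1, 7.98 and 23.2 in LIF-free cultures, against 8.87, 14.8 and 27.8 in LIF cultures, and they overlapped. The lithium-treated signals were 36.6, 23.3 and 24.2 in LIF-free plus lithium cultures and 16.1, 4.81 and 24.6 in LIF plus lithium cultures, again overlapping. Neither log2 change was called (0.25 ± 0.66 and 1.15 ± 0.66). Magel2, Mkrn3 and Peg12, paternally expressed intronless genes of the same region, had log2 changes between -0.04 and 0.94 and were not called. Ube3a, a ubiquitin ligase gene whose imprint is known from neurons, changed by 0.36 and 0.37 without a call.

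Peg3, a paternally expressed zinc finger gene on chromosome 7, had signals of 2320, 1660 and 1180 in LIF-free cultures, against 819, 236 and 220 in LIF cultures. In the lithium-treated cultures they were 2860, 1900 and 1300 in LIF-free plus lithium cultures, against 567, 276 and 171 in LIF plus lithium cultures. The LIF-free arrays were above those with LIF in both pairs, and replicate 1 was highest in each of the 4 conditions. Its log2 changes were 2.25 ± 0.51 (adjusted p = 0.0167) and 2.69 ± 0.51 (adjusted p = 0.0054), and all 3 Peg3 probe sets were called in both comparisons (2.25 to 2.39 and 2.69 to 2.87). In the fit without the block, the first call was lost on leaving out any one of 4 arrays (adjusted p up to 0.0786, without LIF replicate 2). With the replicate block, the limma adjusted p of Peg3 was 1.96e-05 without lithium and 5.07e-06 with it.

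Of the 11 listed genes outside these clusters, 8 were tested, of which 2 were called higher without lithium and 5 with it. Gnas, the locus of the stimulatory G protein alpha subunit, had signals of 2130, 2190 and 2180 in LIF-free cultures, against 1240, 1140 and 1480 in LIF cultures. They were 2200, 2380 and 2090 in LIF-free plus lithium cultures, against 1090, 1070 and 1070 in LIF plus lithium cultures. Among tested members, Gnas had the smallest standard error and the smallest adjusted p in both comparisons. Its log2 changes were 0.76 ± 0.11 (adjusted p = 0.00227) and 1.04 ± 0.11 (adjusted p = 0.000486), which held without any one array. The probe set does not separate the imprinted first exons of this complex locus, and a dimmer one was not called (0.34 and 0.79).

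Inpp5f, an inositol phosphatase gene of which one variant is imprinted, had signals of 176, 170 and 192 in LIF-free cultures, against 116, 108 and 79 in LIF cultures. They were 183, 203 and 147 in LIF-free plus lithium cultures, against 93.1, 120 and 92.3 in LIF plus lithium cultures. Neither pair overlapped. Called log2 changes were 0.85 ± 0.19 (adjusted p = 0.016) and 0.80 ± 0.19 (adjusted p = 0.0163). A pair of dimmer Inpp5f probe sets was not called (0.28 to 1.11). Whether any of these probe sets reads the imprinted variant was not determined. Single arrays ended the first call in 2 cases (adjusted p up to 0.0568, without LIF-free replicate 3) and the second in 3 (up to 0.0794, without LIF-free plus lithium replicate 2).

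Igf2r, the receptor that clears IGF2 from the cell surface, is listed as expressed from the maternal copy. Whether that holds in these cultures was not measured. Its signals were 321, 242 and 153 in LIF-free plus lithium cultures, against 129, 99.9 and 71.7 in LIF plus lithium cultures. In LIF-free cultures they were 272, 231 and 153, against 148, 115 and 120 in LIF cultures. The groups of both pairs were separate. Its log2 change was 1.23 ± 0.29 with lithium (adjusted p = 0.0168) and 0.75 ± 0.29 without it (adjusted p = 0.133). The call was lost on leaving out any one of 4 arrays (adjusted p up to 0.0847, without LIF plus lithium replicate 3). A dimmer Igf2r probe set was not called, with 1.01 with lithium (adjusted p = 0.0975) and 0.82 without it (adjusted p = 0.201). On their brightest probe sets, Igf2 and its receptor were both called higher in LIF-free plus lithium cultures.

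Plagl1, a paternally expressed zinc finger gene that regulates other imprinted genes in mouse, had signals of 805, 761 and 436 in LIF-free plus lithium cultures, against 324, 278 and 119 in LIF plus lithium cultures. In LIF-free cultures they were 884, 916 and 417, overlapping with 519, 192 and 185 in LIF cultures through LIF replicate 1. Plagl1 had a log2 change of 1.55 ± 0.46 with lithium (adjusted p = 0.0443) and 1.40 ± 0.46 without it (adjusted p = 0.0753). The call was lost on leaving out any one of 7 arrays (adjusted p up to 0.194, without LIF plus lithium replicate 3), and the change without lithium was called without LIF replicate 1 (1.88, adjusted p = 0.0115). With the replicate block, the limma adjusted p of Plagl1 was 0.00036 with lithium and 0.000862 without it.

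Nnat, the neuronatin gene, had signals of 243, 211 and 250 in LIF-free plus lithium cultures, against 144, 104 and 49.5 in LIF plus lithium cultures. In LIF-free cultures they were 262, 262 and 273, against 120, 99.7 and 211 in LIF cultures. Both pairs were separate, and the LIF-free arrays lay close together. Nnat had a log2 change of 1.37 ± 0.34 with lithium (adjusted p = 0.0191) and 0.96 ± 0.34 without it (adjusted p = 0.0912). The call was lost on leaving out any one of 3 arrays (adjusted p up to 0.0684, without LIF plus lithium replicate 3). The translation regulator gene Impact had log2 changes of 0.92 (adjusted p = 0.0708) and 0.90 (adjusted p = 0.0652) on its brightest probe set and of -0.48 and -0.98 on a dimmer one, and none was called without the block. Nap1l5, a nucleosome assembly gene, and the growth factor receptor adaptor gene Grb10 were not called, with log2 changes from -0.31 to 0.20.

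Which single arrays ended a call in the fit without the block differed between genes. Every member called in that fit was also called with the replicate block, and single arrays were not left out of the blocked fit. Without lithium, Mest and Peg3 lost theirs without LIF replicate 2 or 3 or LIF-free replicate 1 or 2, and Dlk1 without LIF replicate 2 or LIF-free replicate 1 or 2. Inpp5f lost its call without LIF-free replicate 2 or 3, and Phlda2 without any compared array but LIF replicate 1. With lithium, Mest, Nnat and Inpp5f lost theirs without LIF-free plus lithium replicate 1 or 2 or LIF plus lithium replicate 3. Ndn did so without replicate 1 or 2 of LIF-free plus lithium or replicate 1 or 3 of LIF plus lithium, and Igf2r without replicate 1 or 2 of LIF-free plus lithium or replicate 2 or 3 of LIF plus lithium. Phlda2 did so without any LIF plus lithium array or LIF-free plus lithium replicate 1, and Ascl2 without any compared array. Plagl1 lost its call without the same 4 arrays as Igf2r and, through the shared estimate of the spread, without LIF replicate 2 or LIF-free replicate 1 or 2. Copg2 did so without any compared array but LIF-free plus lithium replicate 3, and without LIF replicate 2 or LIF-free replicate 2 or 3.

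**Figure D2:**
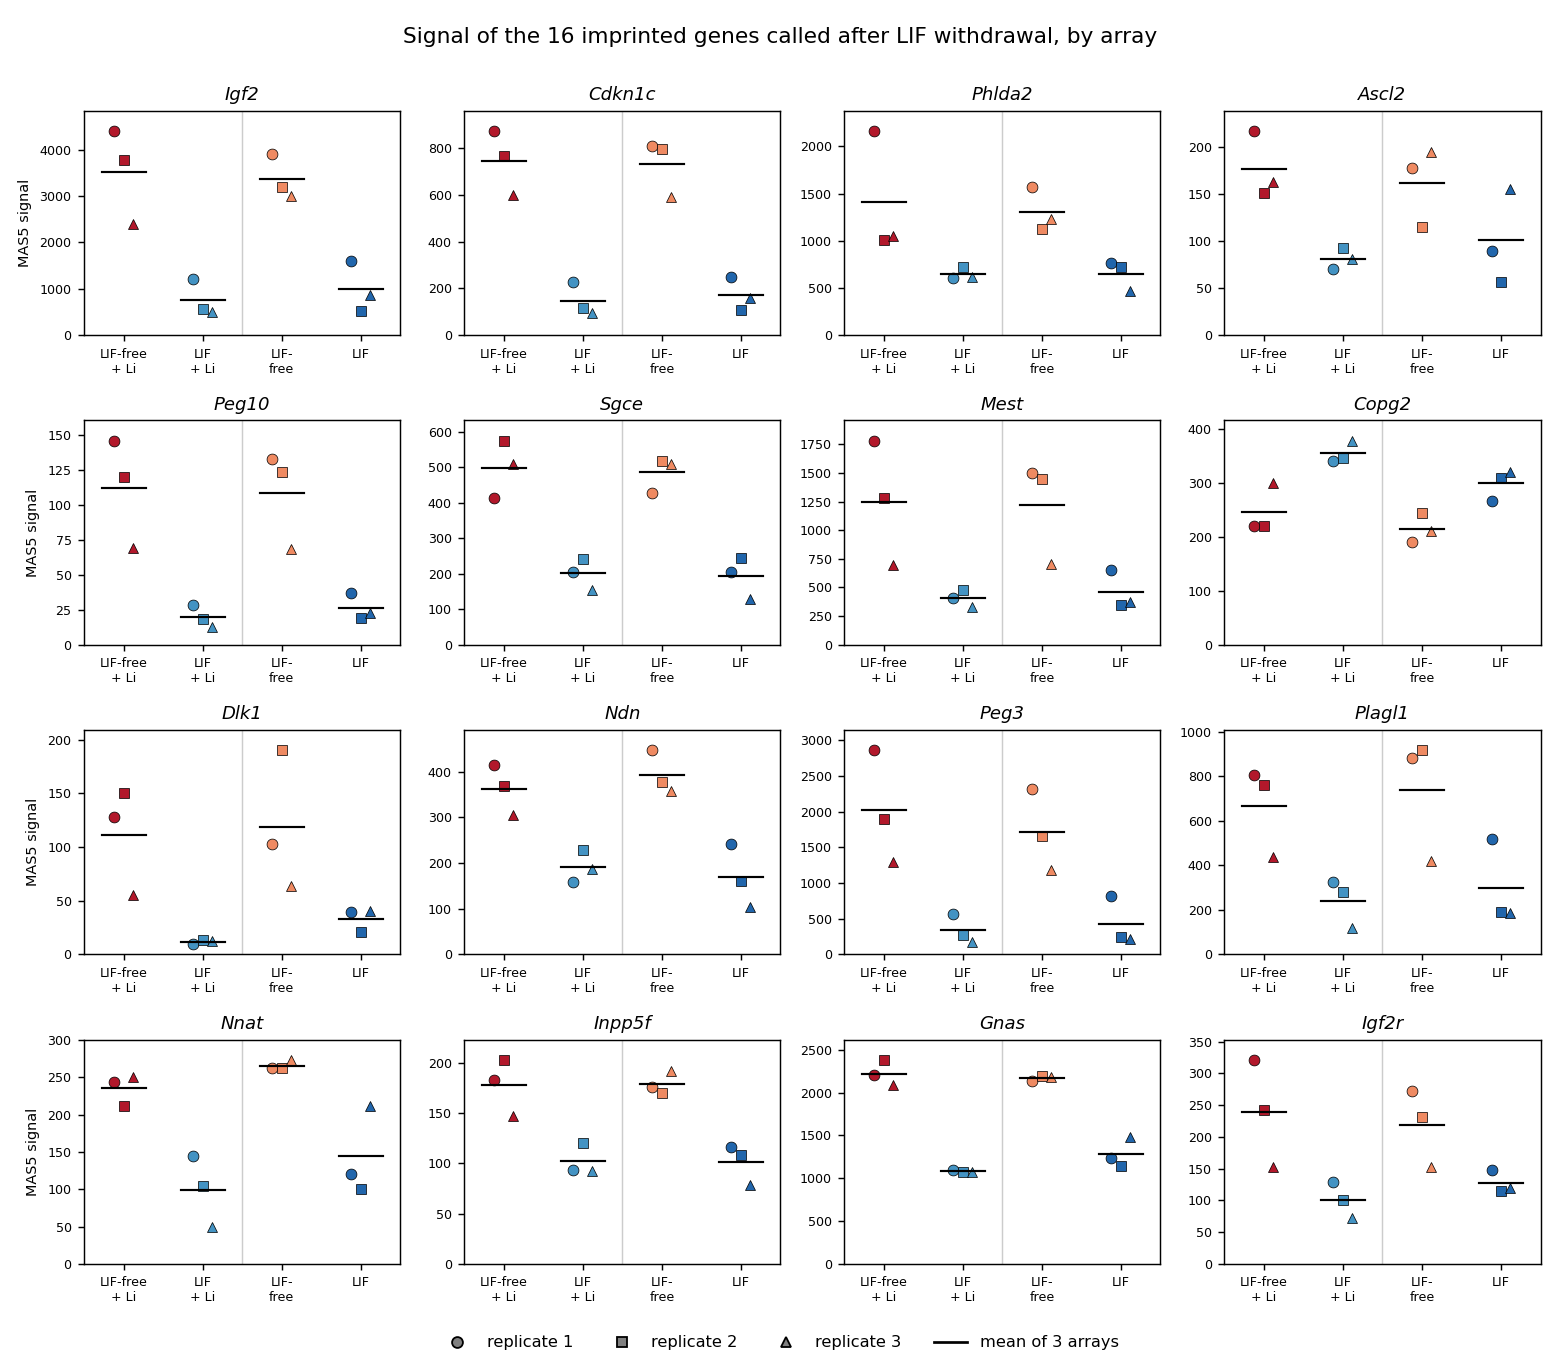
MAS5 signal (vertical axes, each from 0) of the 16 imprinted genes called in either LIF comparison, with 1 point per array, marker shape for the replicate number and a black line for the mean of 3 arrays. In each panel the lithium-treated pair is left of the pair without lithium; Copg2 is the one gene whose LIF-free arrays lie below those with LIF, and Ascl2 and Plagl1 are the genes with overlapping LIF-free and LIF points.

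Lithium gave no called change in an imprinted gene. limma called 0 of the 33 members in LIF plus lithium against LIF cultures, 0 in LIF-free plus lithium against LIF-free cultures and 0 for the interaction of LIF withdrawal and lithium. Called shares over all probe sets were 0% in each. At an unadjusted p under 0.05 the members numbered 1, 0 and 1, and 2.77%, 1.28% and 2.46% of all probe sets. The block called 0 members as well. The median log2 changes of the members were -0.13, 0.03 and 0.15, against -0.08, 0.03 and 0.11 over all probe sets.

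The 95% intervals of a member's lithium change had a median half-width of 0.77 on the log2 scale (0.25 for Gnas, 2.31 for Meg3), and 1.09 for the interaction. A change of the size seen for Gnas after LIF withdrawal would therefore exceed its own interval, but one of that size in Meg3 would not. For Cdkn1c the lithium changes were -0.28 (95% interval -0.99 to 0.43) with LIF and 0.02 (-0.69 to 0.73) without it. For Igf2 they were -0.37 (-1.20 to 0.47) and 0.03 (-0.80 to 0.87), and for Peg3 -0.22 (-1.33 to 0.88) and 0.21 (-0.89 to 1.32).

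Dlk1 had the largest lithium change of the members. Its 3 signals in LIF plus lithium cultures, 9.55 to 12.9, were below the 3 in LIF cultures, 20.4 to 40.2. The log2 change was -1.46 (95% interval -2.42 to -0.51), with an unadjusted p of 0.00559 and an adjusted p of 0.999 in limma. In LIF-free plus lithium against LIF-free cultures it was -0.09 (-1.04 to 0.87). The interaction was 1.38 (0.03 to 2.73, unadjusted p = 0.0461, adjusted p = 0.999), so the difference between both LIF comparisons of Dlk1 was not called. The sizes of -1.46 and 1.38 both rest on the dim LIF plus lithium signals, near the signal of 7.52 at the filter.

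Other members whose groups did not overlap with lithium were Copg2, higher in LIF plus lithium than in LIF cultures, and Peg12 and Gnas, lower (1.64% of all probe sets were higher without overlap and 5.08% lower). In LIF-free plus lithium against LIF-free cultures it was Nnat, lower, and no member was higher (2.42% and 3.59% of all probe sets). These 4 genes were chosen by their values. Their log2 changes, in the order named, were 0.25, -0.72, -0.25 and -0.18, and limma called none (adjusted p of 0.999 or more).

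**Figure D3:**
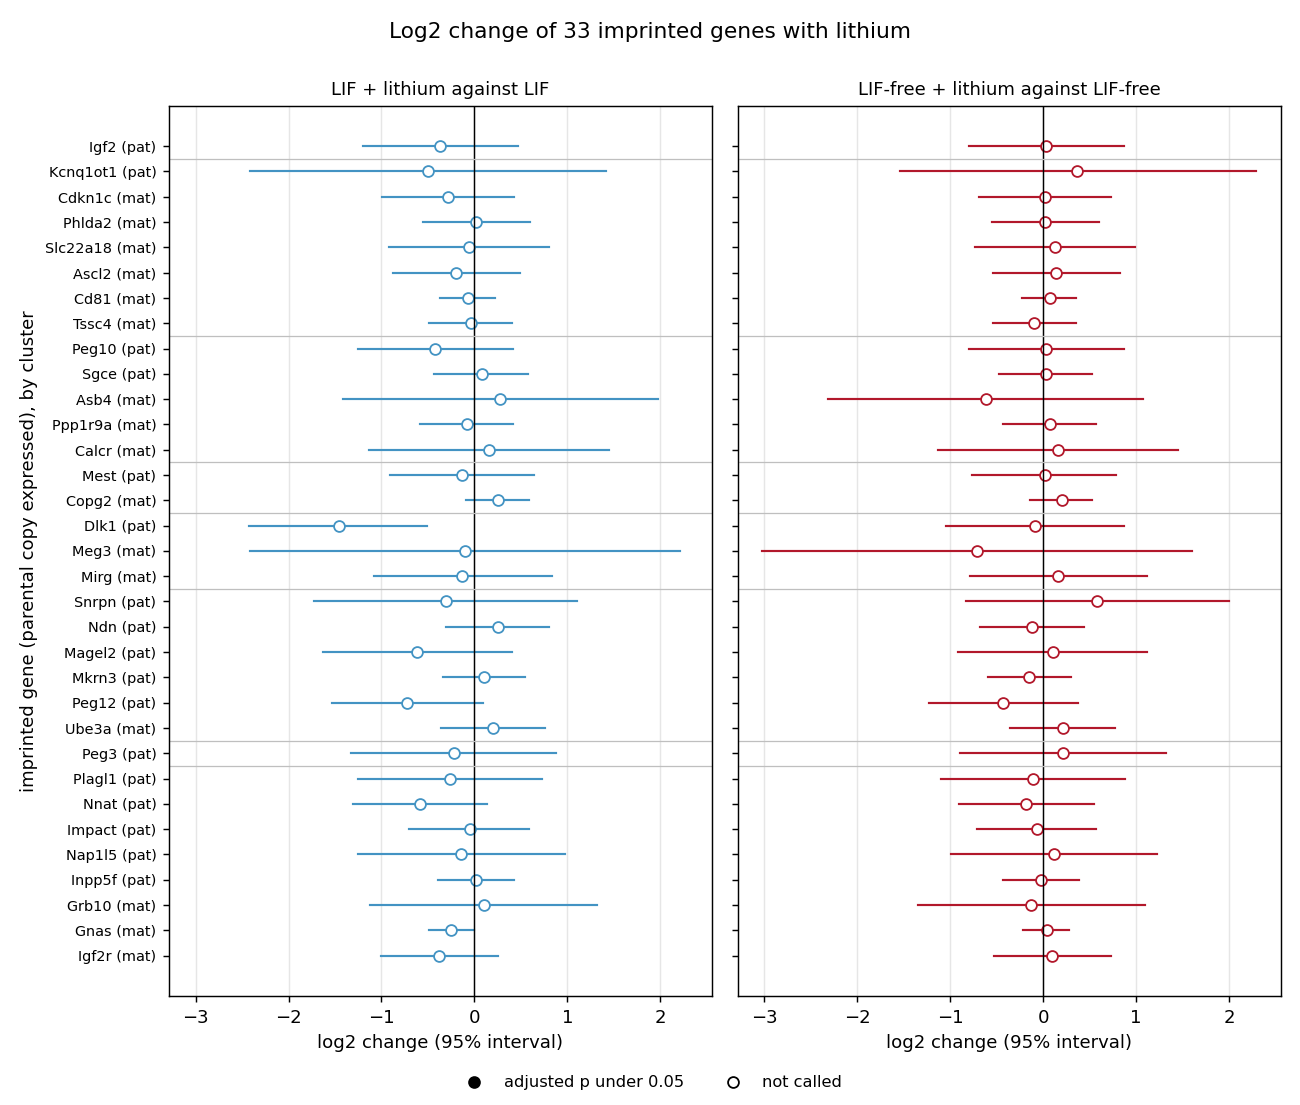
Log2 change (horizontal axis) of the 33 tested imprinted genes with lithium, in LIF plus lithium against LIF cultures (left) and in LIF-free plus lithium against LIF-free cultures (right). Points are limma estimates and bars 95% intervals; all points are open because none was called, and Dlk1 on the left, at -1.46, is farthest from 0.

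For Kcnq1ot1, Grb10 and Meg3 the replicate number went with larger differences than the condition. In the fit with the replicate number as a term, chosen after the values were seen, limma called 12 of the 33 members for that term, against 14.9% of all probe sets. They were Kcnq1ot1, Grb10, Peg3, Meg3, Plagl1, Impact, Igf2r, Mest, Peg10, Igf2, Ube3a and Cdkn1c. In 9 members replicate 1 had the highest signal in all 4 conditions, as in 12.8% of all probe sets. The labels do not say what a replicate number stands for, and it was not tested what differed between them.

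Kcnq1ot1, the silencing RNA of the Cdkn1c cluster, had signals of 122 to 136 in the 4 arrays of replicate 1, against 12.7 to 54.4 in the other arrays (adjusted p = 2.06e-05). By condition and replicate, its signals were 125, 39.5 and 17.8 in LIF-free cultures, against 136, 39.5 and 28.2 in LIF cultures. In LIF-free plus lithium cultures they were 122, 54.4 and 29.1, against 132, 32.3 and 12.7 in LIF plus lithium cultures. The range of its replicate means was 2.63 on the log2 scale and that of its condition means 0.61.

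Grb10 encodes an adaptor that restrains insulin and IGF signalling. Its signals were 232 to 261 in replicate 1, against 67.8 to 128 in the others (adjusted p = 5.02e-05), with a range of 1.63 between replicate means and 0.31 between condition means. Meg3 had 45.8 to 101 in replicate 1, against 3.98 to 46.7 in the others (adjusted p = 0.00155), with ranges of 2.89 and 0.93. For Peg3 the order was the other way: 1.43 between replicate means (adjusted p = 0.000287) and 2.69 between condition means. For Gnas the replicate means spanned 0.04 and the condition means 1.04. Of the 33 members, 9 had a wider range of replicate means than of condition means, and the share over all probe sets was not computed. Of these, Kcnq1ot1, Grb10, Meg3 and Ube3a were called for the replicate number, and Cd81, Ppp1r9a, Mirg, Snrpn and Nap1l5 were not.

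**Figure D4:**
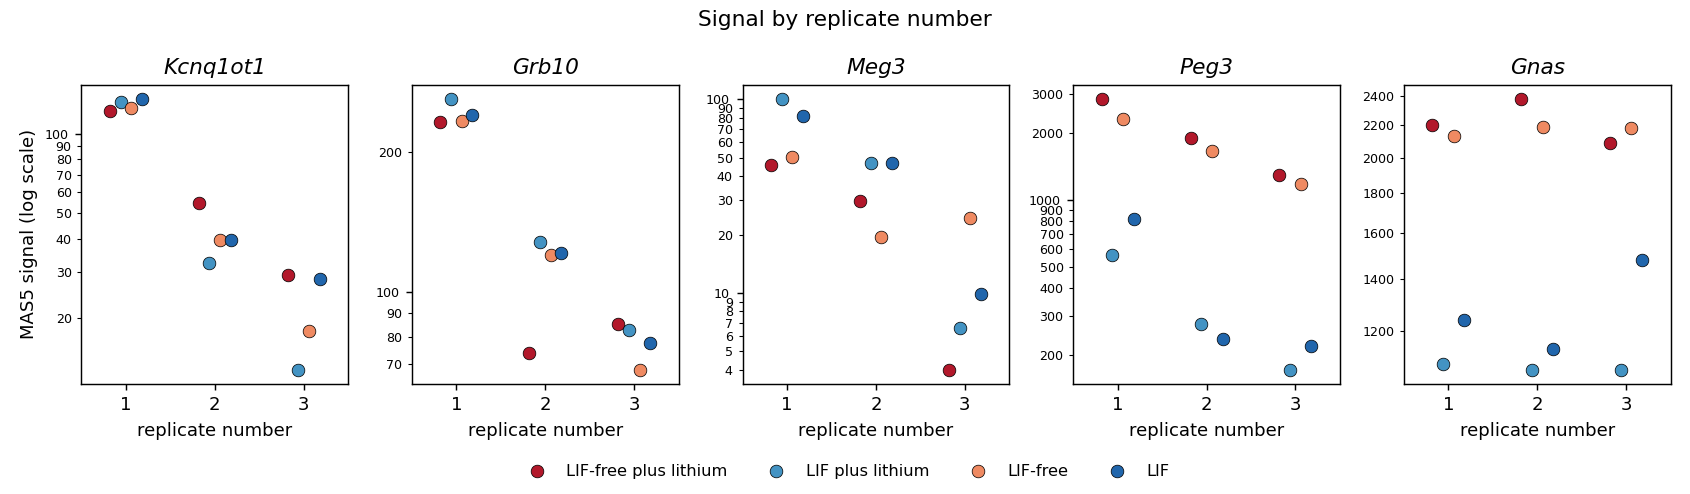
MAS5 signal (vertical axes, log scale) of 5 imprinted genes by replicate number, 1 point per array, coloured by condition. Kcnq1ot1, Grb10 and Meg3 have their high points in replicate 1 of all 4 conditions; Peg3 separates by LIF within each number, and Gnas by LIF with little difference between numbers.

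Imprinted genes outside the listed set were called in both directions. Of 55 further imprinted genes, 45 had a probe set and 36 were tested. Without lithium, 3 were called higher and 2 lower, beside 5.4% and 3.91% of all probe sets. With the block 7 were called higher and 3 lower, beside 10% and 9.42%. The median log2 change was -0.04. The higher ones were Osbpl5, an oxysterol-binding protein gene (2.93, adjusted p = 0.02), Casd1, a sialic acid acetyltransferase gene (1.15, adjusted p = 0.0347), and Pon2, a paraoxonase gene (1.33, adjusted p = 0.0455). Casd1 adjoins Sgce, Pon2 lies farther along the same stretch of chromosome 6, and Osbpl5 lies beyond Phlda2 on chromosome 7. The lower ones were Cobl, an actin nucleator gene near Grb10 (-2.0, adjusted p = 0.00177), and Ampd3, an AMP deaminase gene (-3.48, adjusted p = 0.018). Osbpl5 signals were 30 to 35.4 in LIF-free cultures, against 2.43 to 9.38 in LIF cultures, and those of Ampd3 0.88 to 14.7, against 39.6 to 86.7. In both genes the lower group reached below the filter signal of 7.52, so both folds rest on dim values.

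With lithium, 4 were called higher and 3 lower, beside 7.53% and 4.93% of all probe sets, and with the block 8 and 4, beside 12.8% and 9.19%. The median was 0.08. The 5 with the smallest adjusted p were Cobl (-2.02, adjusted p = 0.00112), the decarboxylase gene Ddc (-1.20, adjusted p = 0.00433), Osbpl5 (2.83, adjusted p = 0.0186), Commd1 (-0.56, adjusted p = 0.0227) and Airn (2.10, adjusted p = 0.0256). The fold of Osbpl5 again rests on dim values, 1.55 to 10.3 in LIF plus lithium cultures. Airn is the long noncoding RNA that lies opposite to Igf2r and is known to silence it on the paternal copy, which was not tested here. Its signals were 35.1 to 97.4 in LIF-free plus lithium cultures, against 8.33 to 27.4 in LIF plus lithium cultures, in the comparison in which Igf2r was called higher too.

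Among genes listed as regulators of imprints, whether they keep or remove methylation, none was called higher in the fit without the block. Of 27 regulators, 25 were tested, of which 0 were called higher and 7 lower without lithium, beside 5.4% and 3.91% of all probe sets. With the block these were 1 and 9, beside 10% and 9.42%. With lithium 0 were called higher and 6 lower, beside 7.53% and 4.93%, and with the block 2 and 8, beside 12.8% and 9.19%. In LIF-free against LIF cultures the 5 with the smallest adjusted p were Tet2 (-2.05, adjusted p = 0.000776) and Tet1 (-1.60, adjusted p = 0.00203), which oxidise methylated cytosine, Zfp42, also an embryonic stem cell marker (-1.11, adjusted p = 0.0023), Zfp57 (-2.18, adjusted p = 0.00298) and Dnmt3l, a cofactor of de novo methylation (-1.24, adjusted p = 0.00448). Zfp57, the factor that guards imprints, had signals of 26.7 to 51.1 in LIF-free cultures, against 120 to 305 in LIF cultures. In LIF-free plus lithium cultures they were 44 to 54.1, against 62.4 to 104 in LIF plus lithium cultures, and the log2 change of -0.64 was not called (adjusted p = 0.269). With lithium the 5 were Zfp42 (-1.39, adjusted p = 0.0007), the Polycomb gene Eed (-0.77, adjusted p = 0.00203), Tet1 (-1.48, adjusted p = 0.0022), Tet2 (-1.21, adjusted p = 0.00359) and Hells, a chromatin remodeller gene (-0.67, adjusted p = 0.0036).

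Some markers of cell types were called in the LIF comparisons as well, and their part in the values of the imprinted genes was not tested. Of all probe sets, 5.4% were called higher and 3.91% lower without lithium, and 7.53% and 4.93% with it. With the block these shares were 10% and 9.42%, and 12.8% and 9.19%. Of 9 embryonic stem cell markers, 7 were called lower without lithium and 7 with it (8 in each with the block). Their summed signal was 11900 to 14900 in LIF-free cultures, against 19300 to 30400 in LIF cultures, and 9760 to 14500 in LIF-free plus lithium cultures, against 22500 to 23600 in LIF plus lithium cultures. The signal of each of the 9 was at least 100 on every array. Of 10 trophoblast markers with a probe set, 9 were tested, and 5 were called higher without lithium and 7 with it (8 in each with the block). The 5 were Gata3 (log2 changes of 2.09 and 2.14), Tfap2c (0.81 and 0.60), Krt7, Krt8 and Krt18, all called in both comparisons, and with lithium Cdx2 (2.16) and Hand1 (1.76) were called too. The summed signal of the list was 11900 to 14000 in LIF-free cultures, against 3790 to 6040 in LIF cultures, and 11800 to 14000 in LIF-free plus lithium cultures, against 3490 to 5470 in LIF plus lithium cultures. Most of that sum was the keratins Krt8 and Krt18, and Elf5 was too dim to test.

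Of 14 fibroblast and feeder cell markers, 11 were tested. Higher calls were 2 without lithium and 3 with it, beside 5.4% and 7.53% of all probe sets. With the block, 4 were higher and 1 lower without lithium, and 7 were higher with it. The called ones were Col5a1 in both comparisons (log2 changes of 1.61 and 2.16), Twist2 without lithium (2.54), and Col3a1 (2.88) and Col6a1 (1.73) with it. Postn had 3.09 (adjusted p = 0.121) and 3.47 (adjusted p = 0.072). Not all listed markers rose. Thy1, the one lower with the block, had -1.13 without lithium (adjusted p = 0.0636, and 0.039 with the block) and -0.45 with it. Without and with lithium, Fbln2 had -0.26 and 1.1, Col1a2 -0.08 and 0.22, and Pdgfrb 0.09 and 0.05, and these were not called. The summed signal of the list was 613 to 1000 in LIF-free cultures, against 431 to 736 in LIF cultures, and 601 to 1290 in LIF-free plus lithium cultures, against 328 to 581 in LIF plus lithium cultures. The other 3 listed markers, Lum, Prrx1 and Fap, were too dim to test. Of 11 endoderm markers, 10 were tested. Without lithium 2 were higher and 1 lower, beside 5.4% and 3.91% of all probe sets, and with it 1 and 2, beside 7.53% and 4.93%. With the block the counts were 3 and 2, beside 10% and 9.42%, and 3 and 3, beside 12.8% and 9.19%. Endoderm markers had summed signals of 2960 to 3660 in LIF-free cultures, against 1670 to 2680 in LIF cultures. With lithium these were 2850 to 3210 in LIF-free plus lithium cultures, against 1860 to 3080 in LIF plus lithium cultures. The Gapdh 3′ to 5′ signal ratio, a measure of RNA quality, was 0.739 to 0.8 in LIF-free arrays, against 0.81 to 0.82 in LIF arrays. It was 0.748 to 0.802 in LIF-free plus lithium arrays, against 0.798 to 0.86 in LIF plus lithium arrays, and its part in these results was not tested either.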

How the data were processed

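Total RNA of mouse D3 embryonic stem cells was measured on 12 Affymetrix arrays, 3 per condition. The deposited intensity values are linear MAS5 signals, which the authors computed per the submitters' processing notes; the version of MAS5 and its settings are not given in the sources used here. Signals under 1 were set to 1 (0.146% of tested values) and log2 was taken of the deposited signals. Of 45101 probe sets, 64 controls were left out, and 27022 were tested whose mean log2 value over the 12 arrays exceeded the 40th percentile (a signal of 7.52). The platform annotation gives a single symbol for 34945 probe sets, several symbols for 932 and no symbol for 9160. A gene was read on its brightest probe set of 1 symbol.

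A linear model with a mean for each condition was fitted over the 12 arrays (limma 3.58.1, R 4.3.3). The moderated two-sided test used eBayes with trend set, on 8 residual degrees of freedom. Benjamini-Hochberg adjustment ran over all 27022 probe sets of each of 5 comparisons, with a threshold of 0.05, and "called" means under it. With 3 arrays against 3, an exact permutation test cannot give a p under 0.1. Nothing says that the replicates came from separate cultures beyond the word biological, so p-values measure the spread between these arrays. The number of arrays limits the precision.

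The members and gene lists were chosen with earlier results of these data known. All 40 members are accounted for. Values by array are given for members called in any comparison and for Igf2, Cdkn1c, Peg10, Dlk1, Meg3, Mest, Peg3, Snrpn and Igf2r; of the further lists, up to 5 called genes with the smallest adjusted p are named. Asb4, Kcnq1ot1, Grb10 and Impact were added after their values were seen.

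Equal replicate numbers in the labels were taken as pairs where the residuals of all 3 same-numbered array pairs correlated above 0.1 over the tested probe sets. The correlations were 0.438, 0.137 and 0.339 for LIF-free and LIF (paired), and 0.451, 0.0972 and 0.379 for LIF-free plus lithium and LIF plus lithium (not paired). They were 0.499, 0.139 and 0.321 for LIF plus lithium and LIF, and 0.462, 0.111 and 0.3 for LIF-free plus lithium and LIF-free, both paired.

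Alternatives were quantile normalisation, median centring over the tested probe sets, 16 signal units added before log2, testing all probe sets, filtering at the 60th percentile instead, the replicate block, no intensity trend, only the compared arrays, probe sets without the _x_at suffix, and leaving out each array. Promoter windows came from RefSeq (GRCm38.p6); 34 members had one. Plots used matplotlib 3.10.9 under Python 3.11.15.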

Additional observations from a re-analysis of the deposited data

How the results depend on the processing

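Without single arrays, the number of imprinted genes called ran from 6 to 15 (11 with all arrays) in LIF-free against LIF cultures and from 7 to 17 (16 with all arrays) in LIF-free plus lithium against LIF plus lithium cultures, with fewer arrays in each such fit. The replicate block gave 17 in the first and 17 in the second, whose arrays did not count as paired. No intensity trend gave 8 and 11, only the compared arrays 8 and 15, and no filter 11 and 13. The 3 lithium comparisons gave 0 members under every alternative. Cdkn1c, Gnas, Igf2, Ndn, Peg10 and Sgce kept their call without lithium in all alternatives, and Cdkn1c, Dlk1, Gnas, Igf2, Peg10, Peg3 and Sgce theirs with it. No called member changed sign. Over all probe sets, the count without lithium was 2515, and 5260 with the block, 1674 with no trend and 1168 with only the compared arrays, and 1039 to 3950 without single arrays; with lithium it was 3368, and 5938 with the block and 1360 to 4311 without single arrays. In LIF plus lithium against LIF cultures, 2 probe sets were called without LIF plus lithium replicate 1. Without an array, uncalled log2 changes near 0 changed sign: without lithium they ran from -1.01 to 0.42 for Kcnq1ot1, -1.11 to 0.42 for Meg3, -0.18 to 0.85 for Snrpn and -0.53 to 0.36 for Grb10. With lithium they ran from -0.18 to 1.51 for Kcnq1ot1, -1.97 to 0.23 for Meg3 and -0.82 to 0.14 for Grb10. The cause of these shifts was not tested. Signals near background limit Asb4, Peg12, Snrpn, Slc22a18, Calcr and Mirg, and Dlk1 in LIF plus lithium cultures.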
